A study of Mus musculus with 6 samples.

Results

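Translation initiation factors, named Eif for eukaryotic initiation factor, were compared between mouse kidney epithelial cells kept attached and cells of the same kind held in suspension for 4 h. The genes were found by name, as rows of the authors' deposited table that name 1 gene beginning with Eif and a digit, with pseudogenes left out. This gave 54 genes of the 37757 rows in the authors' deposited table, each with a single row, and 51 of them were tested there. The 3 that were not tested were Eif2s3y and Eif2c5, listed at 0 in both conditions, and Eif4e1b, listed at 0.0226 FPKM attached and at 0 suspended in the authors' deposited table. Eif2c5 carries an older kind of Argonaute symbol and is no initiation factor, so it is counted in the 54 and named again only with the promoter windows. No row naming several genes was included, which left out Eif4ebp3 (merged with Ankhd1) and Eif4e3 (merged with Foxp1 and Gm20696).

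Both groups came from C57/Bl6J mice 8 weeks old with the genotype Bim-/- Bmf-/-, so the loss of these BH3-only death genes is shared by the attached and the suspended cells and no wild-type cells were compared. The cells were cultured, and the titles call the suspended group anoikis, a name for death after loss of attachment. There were 3 libraries attached and 3 suspended, called independent in the series' design text without saying whether separate cultures or animals stood behind them. RNA was sequenced as mRNA, and the deposited values are FPKM (fragment counts scaled by transcript length and by library total), 1 value per condition pooled over its libraries. Values of single libraries were not used here and their depth is unknown, so no spread of a difference is given. Beside each difference stands the q of the authors' own test, called at q below 0.05, and that test may cover technical spread only. The letters A and S that end the names of the compared conditions were read as attached and suspended.

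Initiation begins when eIF2, a GTPase of alpha, beta and gamma subunits, brings the initiator methionyl-tRNA to the small ribosomal subunit, where eIF1, eIF1A, eIF3 and eIF5 assemble with it. The mRNA is brought by eIF4F, made of the cap-binding protein eIF4E, the scaffold eIF4G and the helicase eIF4A. Cells are known to slow this process at 2 points. Kinases that sense stress phosphorylate the alpha subunit of eIF2, which then blocks eIF2B, the exchange factor that recharges eIF2 with GTP. Hypophosphorylated eIF4E-binding proteins, which mTORC1 controls, keep eIF4E away from eIF4G.

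All 8 fixed markers of kidney epithelium were tested, with summed FPKM of 2654 attached and 2524 suspended (authors' deposited table), and 3 were called higher and 4 lower, Pax2 and Pax8 among the latter. Of 3 leukocyte markers, Ptprc (1.42 and 12.4 FPKM) and Cd68 (23.4 and 34.9 FPKM) were called higher in suspension in the authors' deposited table, and Itgam stayed below 1 FPKM. The 3 endothelial and 2 podocyte markers were below 1 FPKM in both conditions in the authors' deposited table, and Acta2 was the only mesenchymal marker of 3 above 1 FPKM. The FPKM of mitochondrial rows added up to 31198 in attached and 68368 in suspended cells, and of 10 tested rows 3 were called higher and 0 lower (authors' deposited table). What part these leukocyte and mitochondrial differences have in the results that follow was not tested. Transcript of the genes labelled as deleted was listed at 9.53 and 51.4 FPKM for Bcl2l11 (Bim) and at 2.95 and 4.30 FPKM for Bmf in the authors' deposited table, which does not show which exons were removed.

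Initiation factor transcripts shifted lower more often than higher, while both eIF4E-binding proteins and, of the eIF2 alpha kinases, Eif2ak3 rose. Of 51 tested members, the authors' deposited table called 20 lower and 7 higher in suspension and left 24 uncalled. Over all 14748 tested rows 26.3% were called lower and 24.7% higher, against 39.2% and 13.7% of the members. In either direction 27 of the 51 members were called (authors' deposited table), and 51.0% of all tested rows were, so the total share stood near the background. Call rates depend on expression level. Among 10583 tested rows with a mean of at least 3 FPKM, a floor just under the lowest tested member, 32.7% were called lower, 23.1% higher and 55.8% in either direction, which brings the background closer to the members' share of lower calls. Whether the members differ from other rows in direction was not tested.

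Most of the changes were moderate. The median log2 fold change (suspended over attached) of the members was -0.24, and that of all tested rows above 0 in both conditions was -0.04, or -0.12 with the floor of 3 FPKM, computed from the authors' deposited table. Only 3 of the 27 called members reached 2-fold, namely Eif5a2 and Eif2ak3 (higher) and Eif1a (lower). The smallest called change was that of Eif4b (log2 -0.24, q = 0.0441), and the largest change that was not called was that of Eif2b4 (log2 -0.50, q = 0.120) in the authors' deposited table, which shows the range in which a call depended on the gene. Summed over all 54 genes, FPKM stood at 4516 attached and 4134 suspended, a difference of -8.47% (computed from the authors' deposited table). In bulk RNA, a change in the amount of a transcript per cell and a change in which cells are present cannot be told apart.

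**Figure D1:**
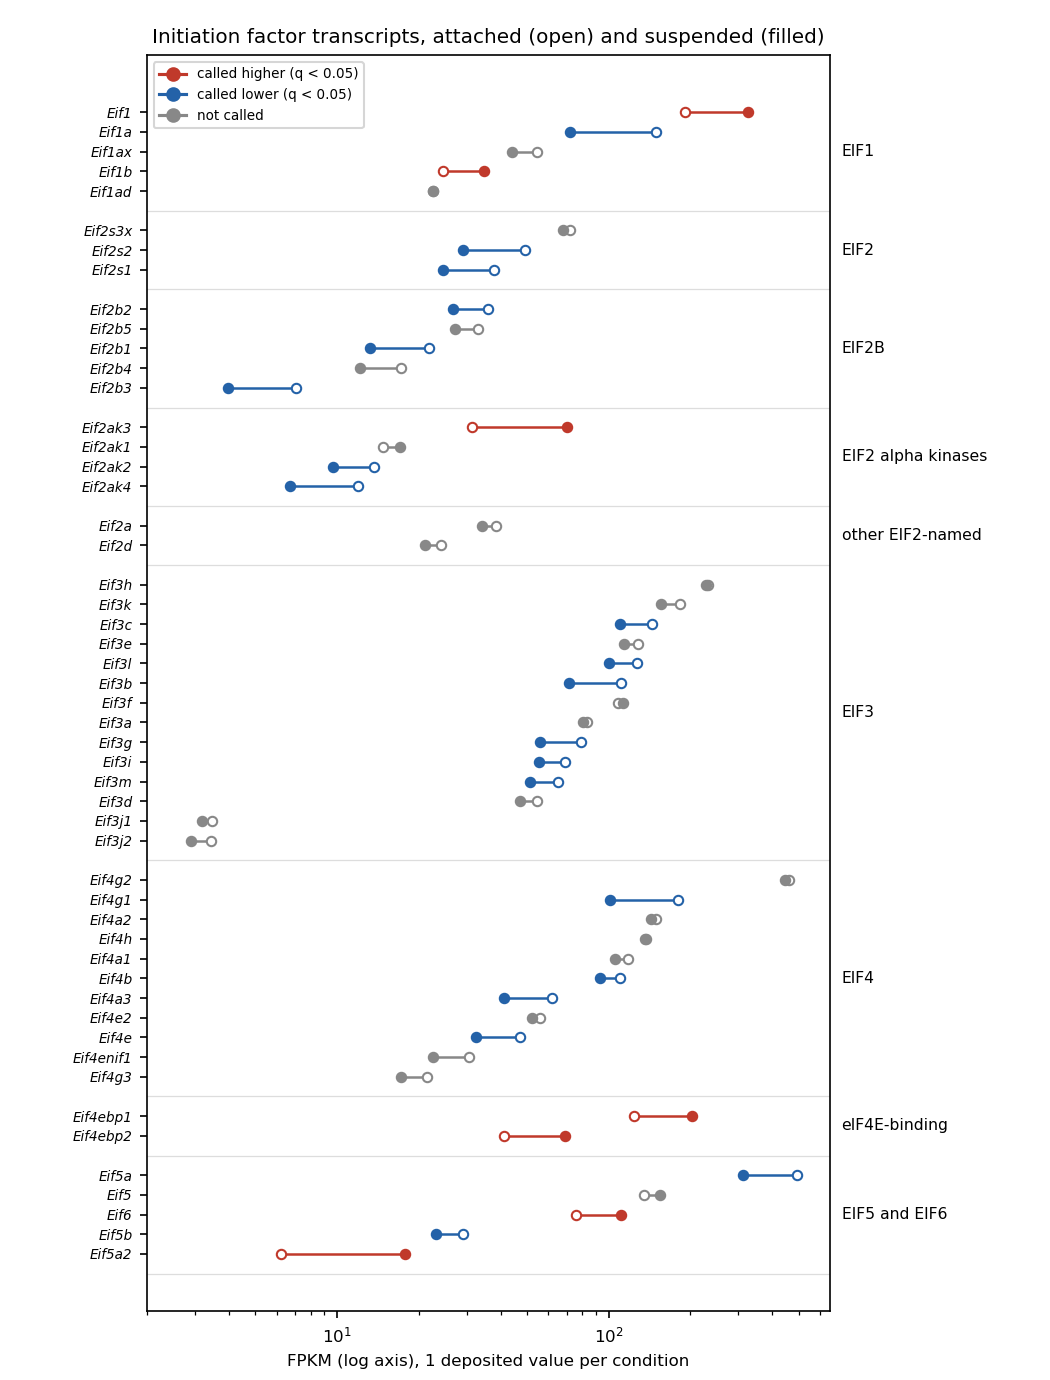
FPKM of the 51 tested members on a log axis, a single value for each condition (authors' deposited table), with open circles for attached and filled circles for suspended cells and lines coloured by call at q below 0.05. EIF2, EIF2B, EIF3 and EIF4 members are blue or grey, while Eif2ak3, Eif4ebp1, Eif4ebp2, Eif5a2, Eif1, Eif1b and Eif6 are red.

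The EIF2 complex fell in 2 of its 3 tested subunits. Eif2s1, the alpha subunit that stress kinases phosphorylate, stood at 37.9 FPKM attached and 24.5 FPKM suspended (log2 -0.63, q = 0.000185, authors' deposited table). Its row spans chromosome 12, positions 78861819 to 78887010 (mm10). Eif2s2, the beta subunit, stood at 49.4 FPKM attached and 29.0 FPKM suspended (log2 -0.77, q = 0.000355, authors' deposited table). The Eif2s2 row spans 12.1 times the length of the gene and holds the coding genes Raly, a and Gm14226, so this value is uncertain. The gamma subunit Eif2s3x was listed at 72.3 and 67.9 FPKM (log2 -0.09, q = 0.502, authors' deposited table) and was not called. The alpha and beta transcripts were therefore lower relative to gamma: the FPKM ratio of Eif2s1 to Eif2s3x was 0.525 attached and 0.361 suspended, and that of Eif2s2 to Eif2s3x was 0.683 and 0.428, computed from the authors' deposited table.

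Of the 5 subunits of EIF2B, 3 fell, and the other two had lower FPKM without being called. Eif2b1, the alpha subunit, stood at 21.9 FPKM attached and 13.3 FPKM suspended (log2 -0.72, q = 0.000185, authors' deposited table). Eif2b3, the gamma subunit, was the least abundant of the 5 and fell the most, with 7.09 FPKM attached and 3.96 FPKM suspended (log2 -0.84, q = 0.000185, authors' deposited table). Eif2b2, the beta subunit, was listed at 35.9 and 26.8 FPKM (log2 -0.42, q = 0.0117, authors' deposited table). The delta subunit Eif2b4 (17.2 and 12.1 FPKM, q = 0.120) and the catalytic epsilon subunit Eif2b5 (33.0 and 27.2 FPKM, q = 0.0712) were not called (authors' deposited table). Alpha, beta and delta form the regulatory part that binds phosphorylated eIF2, and gamma and epsilon the catalytic part, so calls occurred in both parts. EIF2 and EIF2B, planned as separate groups, together had 5 of 8 tested genes called lower (62.5%) and 0 higher, with a median log2 of -0.57. All tested rows had 26.3% lower and 24.7% higher, and those with a mean of at least 3 FPKM had 32.7% and 23.1%. Among the other members 15 of 43 were lower and 7 higher, with a median of -0.20 (computed from the authors' deposited table). No test of that difference was made.

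The 4 EIF2 alpha kinases did not move together. Each is known to answer a different stress: Eif2ak3 (PERK) unfolded protein in the endoplasmic reticulum, Eif2ak4 (GCN2) uncharged tRNA, Eif2ak2 (PKR) double-stranded RNA and Eif2ak1 (HRI) a lack of haem. Eif2ak3 rose from 31.4 FPKM attached to 70.5 FPKM suspended, 2.25-fold (log2 1.17, q = 0.000185, authors' deposited table), and its row spans chromosome 6, positions 70844515 to 70905245 (mm10), with the small RNA gene Gm23346 inside it. Eif2ak4 fell from 11.9 to 6.72 FPKM (log2 -0.83, q = 0.000185, authors' deposited table). Eif2ak2 fell from 13.6 to 9.71 FPKM (log2 -0.49, q = 0.000355, authors' deposited table), and Eif2ak1 was not called, at 14.7 and 17.0 FPKM (log2 0.21, q = 0.182). In attached cells the 3 kinases other than Eif2ak3 lay close together, between 11.9 and 14.7 FPKM (authors' deposited table). The share of Eif2ak3 in the summed FPKM of the 4 kinases was 43.8% attached and 67.8% suspended, while that of Eif2ak4 was 16.7% and 6.46% (computed from the authors' deposited table). The FPKM ratio of Eif2ak3 to its substrate Eif2s1 was 0.828 attached and 2.87 suspended, computed from the authors' deposited table. Transcript levels say nothing of kinase activity, and phosphorylated eIF2 was not measured.

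Eif2a and Eif2d carry EIF2 names but are no subunits of the complex: each is an alternative factor that can bring tRNA to the ribosome. Neither was called, at 38.6 and 34.3 FPKM for Eif2a (q = 0.528) and with a log2 of -0.21 for Eif2d (q = 0.257) in the authors' deposited table.

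**Figure D2:**
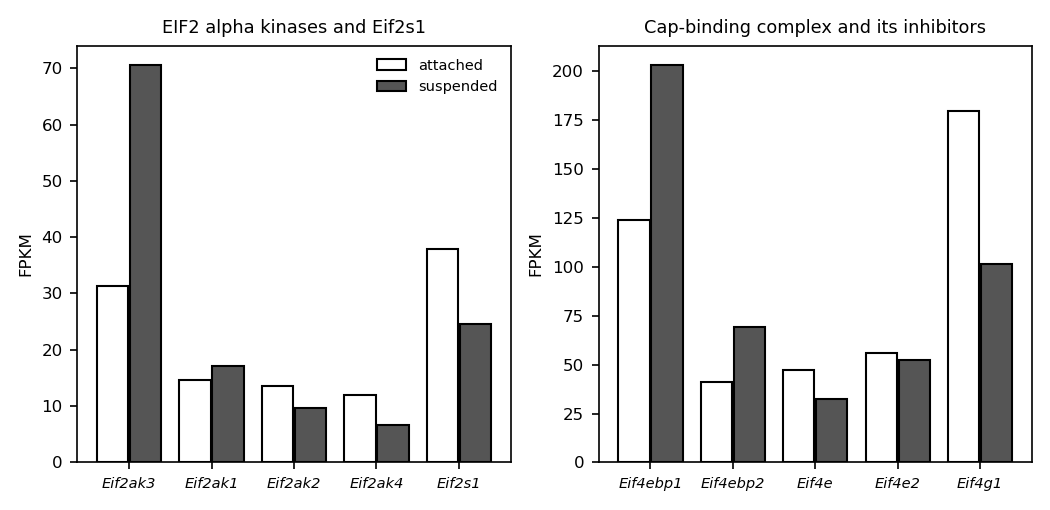
FPKM (bars from 0, a single value for each condition (authors' deposited table)) of the EIF2 alpha kinases with their substrate Eif2s1, left, and of the cap-binding complex with its inhibitors, right, in attached (white) and suspended (grey) cells. Eif2ak3 stands at 31.4 and 70.5 FPKM while the other kinases stay at or below 17.0 FPKM, and Eif4ebp1 and Eif4ebp2 are higher where Eif4e and Eif4g1 are lower.

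EIF3 is the largest initiation factor, a scaffold of many subunits that joins the small ribosomal subunit to eIF4G. Of 14 tested EIF3 genes 6 fell, 0 rose and 8 were not called (authors' deposited table), with a median log2 of -0.24 equal to that of all members. The 42.9% called lower stand beside 26.3% of all tested rows and 32.7% of those with a mean of at least 3 FPKM. For higher calls these background shares were 24.7% and 23.1%. Eif3b, an RNA-binding core subunit, fell the most, from 111 to 71.7 FPKM (log2 -0.63, q = 0.000185, authors' deposited table). Eif3g, its neighbour in the complex, fell from 79.2 to 55.9 FPKM (log2 -0.50, q = 0.000185), and Eif3i, the third of this module, from 69.1 to 55.5 FPKM (log2 -0.32, q = 0.0163, both from the authors' deposited table). Eif3b, Eif3g and Eif3i form a module of their own with Eif3a, and Eif3a itself was not called, at 83.0 and 80.4 FPKM (log2 -0.05, q = 0.746, authors' deposited table).

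The remaining EIF3 subunits mostly belong to the octamer built from PCI and MPN domains. Eif3c fell from 144 to 110 FPKM (log2 -0.39, q = 0.000355), Eif3l from 127 to 99.9 FPKM (log2 -0.35, q = 0.00157) and Eif3m from 65.3 to 51.3 FPKM (log2 -0.35, q = 0.00805) in the authors' deposited table. Eif3h, the most abundant EIF3 transcript, was not called at 232 and 229 FPKM (q = 0.917, authors' deposited table). Eif3f (108 and 113 FPKM, q = 0.644), Eif3e (128 and 114 FPKM, q = 0.192) and Eif3k (183 and 155 FPKM, q = 0.0619) were not called either in the authors' deposited table. Eif3f and Eif3h, the pair with MPN domains, had with Eif3a the 3 smallest changes of the 14 EIF3 genes. Eif3d, which can itself bind the cap of some mRNAs, was listed at 54.5 and 47.4 FPKM (q = 0.116, authors' deposited table). The loosely bound subunit J stood far below the rest, at 3.46 and 3.18 FPKM for Eif3j1 (q = 0.750) and 3.45 and 2.90 FPKM for Eif3j2 (q = 0.252), in the authors' deposited table. These 2 genes are near-identical copies, so the split of fragments between them is uncertain.

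Although EIF3 subunits are built into 1 complex, their transcripts were not equally abundant. Without Eif3j1 and Eif3j2, the 12 others ranged from 54.5 to 232 FPKM attached, a 4.25-fold range, and from 47.4 to 229 FPKM suspended, a 4.84-fold range, in the authors' deposited table. Their coefficient of variation was 45.2% attached and 53.3% suspended, computed from the authors' deposited table. The same measure was 32.9% and 58.9% over the 3 tested EIF2 genes and 51.2% and 60.6% over the 5 EIF2B genes. Summed FPKM was 14.5% lower for EIF3, 13.0% for EIF4, 23.9% for EIF2 and 27.5% for EIF2B (computed from the authors' deposited table, with no test of the sums).

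Of 11 tested EIF4 genes 4 fell, 0 rose and 7 were not called (authors' deposited table). The share called lower was 36.4%, near the 32.7% of tested rows with a mean of at least 3 FPKM, of which 23.1% were called higher. Over all tested rows the shares were 26.3% lower and 24.7% higher. Eif4g1, the main scaffold of eIF4F, fell from 180 to 101 FPKM (log2 -0.83, q = 0.000185, authors' deposited table), and its row spans chromosome 16, positions 20668313 to 20692884 (mm10). Among all 51 tested members its level ranked 6 attached and 15 suspended. Eif4e, the cap-binding subunit, fell from 47.3 to 32.5 FPKM (log2 -0.54, q = 0.000185, authors' deposited table). Eif4b, a cofactor of the helicase, fell from 110 to 92.9 FPKM (log2 -0.24, q = 0.0441, authors' deposited table). Eif4a3 fell from 61.9 to 41.3 FPKM (log2 -0.58, q = 0.000518, authors' deposited table). Despite its name, eIF4A3 acts in the exon junction complex and not in eIF4F.

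The helicases that do act in eIF4F were not called, at 118 and 106 FPKM for Eif4a1 (q = 0.231) and 149 and 144 FPKM for Eif4a2 (q = 0.750) in the authors' deposited table. Small RNA genes lie on the same strand inside 12 members, which makes their values less certain: Eif2ak3, Eif3a, Eif3b, Eif3j1, Eif3j2, Eif4a1, Eif4a2, Eif4e, Eif4g1, Eif4g2, Eif4g3 and Eif5. Eif4g2, an eIF4G relative that lacks the eIF4E-binding part and serves cap-independent initiation, was the most abundant EIF4 transcript and was not called at 459 and 444 FPKM (q = 0.773, authors' deposited table). The FPKM ratio of Eif4g1 to Eif4g2 was 0.391 attached and 0.228 suspended, computed from the authors' deposited table. Eif4g3 (21.4 and 17.2 FPKM, q = 0.0671), the helicase cofactor Eif4h (136 and 137 FPKM, q = 0.924) and Eif4e2 (55.7 and 52.3 FPKM, q = 0.584), a cap-binding relative that represses translation, were not called (authors' deposited table). Eif4enif1, a transporter of eIF4E into the nucleus, was not called at 30.5 and 22.6 FPKM (log2 -0.43, q = 0.114, authors' deposited table), although its change was larger than that of Eif4b.

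Both eIF4E-binding proteins with a row of their own rose. Eif4ebp1 stood at 124 FPKM attached and 203 FPKM suspended, 1.64-fold higher (log2 0.71, q = 0.000185, authors' deposited table), and its row spans chromosome 8, positions 27260327 to 27275656 (mm10). Eif4ebp2 stood at 41.3 FPKM attached and 69.0 FPKM suspended, 1.67-fold higher (log2 0.74, q = 0.000185, authors' deposited table), on chromosome 10, positions 61432497 to 61452669 (mm10). With Eif4e lower at the same time, the FPKM of the 2 binding proteins together was 3.49 times that of Eif4e attached and 8.37 times suspended, a 2.40-fold difference in ratio (computed from the authors' deposited table). The merged row of Ankhd1 and Eif4ebp3 was also called higher (22.9 and 36.8 FPKM, q = 0.000185, authors' deposited table), as was that of Eif4e3, Foxp1 and Gm20696 (11.6 and 25.9 FPKM, q = 0.000185), but neither value can be given to a single gene.

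**Figure D3:**
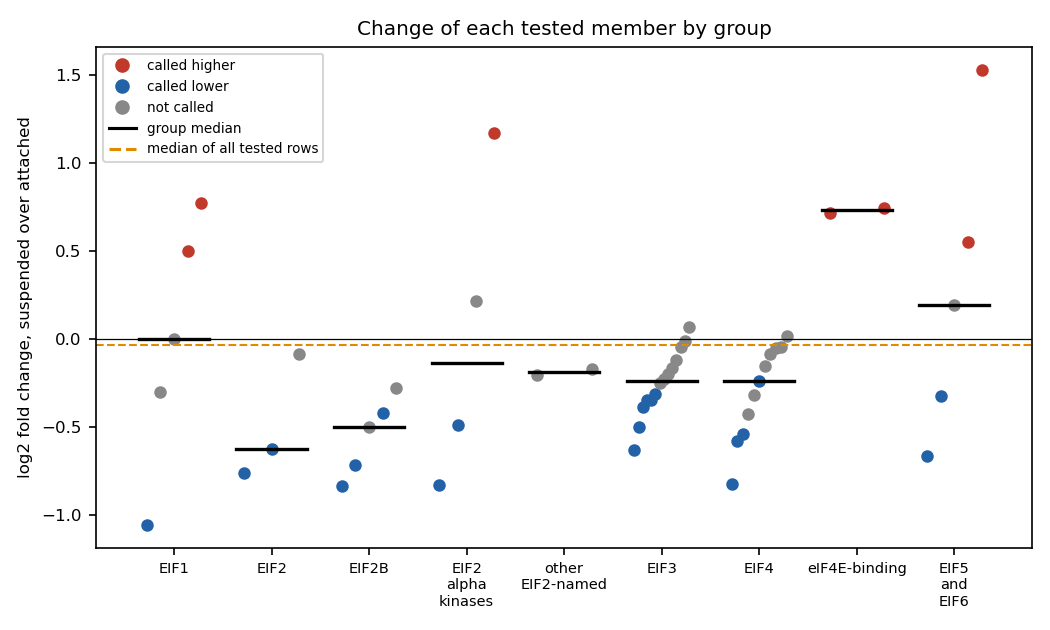
Log2 fold change (suspended over attached) of each tested member in the authors' deposited table, by group, with colour for the call, a black bar for the group median and a dashed line at the median of all tested rows (-0.04). All EIF2 and EIF2B points lie below 0 (Eif2s3x would cross 0 when centred on the median of genes of at least 1 FPKM or scaled to equal sums), the EIF2 alpha kinases spread from -0.83 to 1.17, and both eIF4E-binding proteins lie above 0.7.

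The EIF1 group was made by name, holds genes of both eIF1 and eIF1A, and had calls in both directions. The protein eIF1 keeps the scanning ribosome from stopping at a wrong start codon. Eif1 rose from 191 to 326 FPKM (log2 0.77, q = 0.000185, authors' deposited table), which took it from rank 4 to rank 2 among the tested members. Its paralogue Eif1b rose from 24.7 to 34.8 FPKM (log2 0.50, q = 0.00213, authors' deposited table). Eif1a, which encodes eIF1A, fell from 150 to 72.0 FPKM (log2 -1.06, q = 0.000185, authors' deposited table), the largest fall of any tested member. Its X-linked copy Eif1ax was not called at 54.4 and 44.0 FPKM (q = 0.295, authors' deposited table). The 2 copies are alike in sequence, so fragments may have been split between them, and their FPKM ratio was 2.76 attached and 1.64 suspended (computed from the authors' deposited table). Eif1ad was level, at 22.6 FPKM in both conditions (q = 0.997, authors' deposited table).

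Of the 5 tested genes in the EIF5 and EIF6 group, made by name, 2 rose and 2 fell. Over all tested rows 24.7% were called higher and 26.3% lower. Eif5a2 rose from 6.20 to 17.9 FPKM, 2.88-fold (log2 1.53, q = 0.000185, authors' deposited table), the largest rise of any tested member, on chromosome 3, positions 28781311 to 28798846 (mm10). Its paralogue Eif5a, the most abundant member in attached cells, fell from 494 to 311 FPKM (log2 -0.67, q = 0.000185, authors' deposited table). Both encode the hypusine-bearing protein eIF5A, which acts mainly in elongation and termination. The FPKM ratio of Eif5a2 to Eif5a was 0.0126 attached and 0.0574 suspended, 4.57-fold different, so Eif5a transcript still stood far above Eif5a2 (computed from the authors' deposited table). Eif6, which keeps the large ribosomal subunit from joining too early, rose from 76.0 to 111 FPKM (log2 0.55, q = 0.000185, authors' deposited table). Eif5b, the GTPase that joins the subunits, fell from 29.0 to 23.1 FPKM (log2 -0.33, q = 0.0104, authors' deposited table). Eif5, which triggers GTP hydrolysis by eIF2, was not called at 135 and 155 FPKM (log2 0.19, q = 0.127, authors' deposited table).

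**Figure D4:**
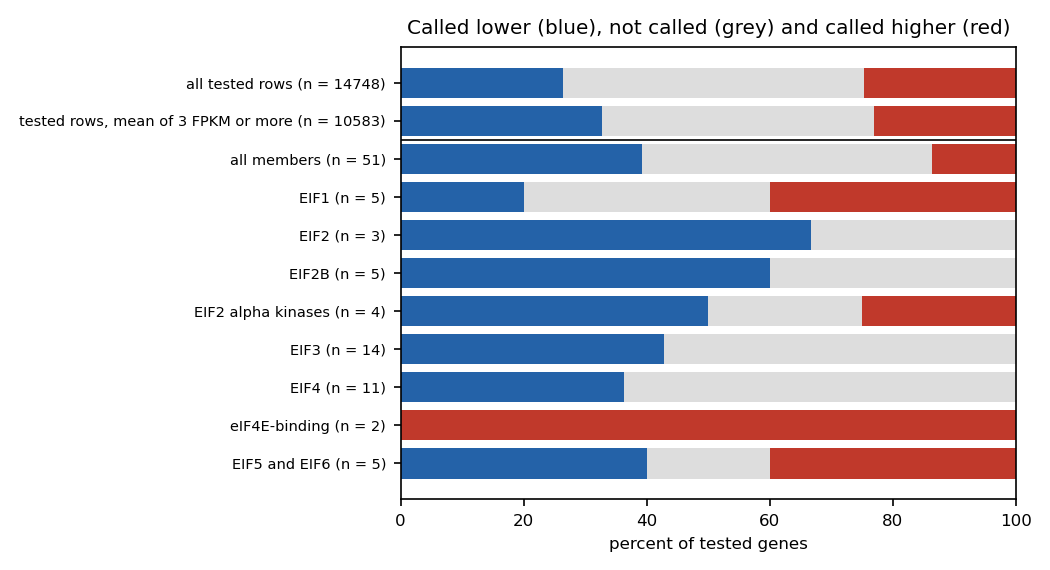
Percent of tested genes called lower (blue), not called (grey) and called higher (red) at q below 0.05 in the authors' deposited table, for all tested rows, for those with a mean of at least 3 FPKM, for all members and for groups of them, with the number tested in brackets. EIF2, EIF2B, EIF3 and EIF4 hold no red, against 24.7% in all tested rows.

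The calls were spread unevenly over the groups. EIF2, EIF2B, EIF3 and EIF4 had 15 of 33 tested genes called lower and 0 higher in the authors' deposited table, while the other groups of Eif-named genes held all 7 higher calls and 5 lower ones. Over all tested rows 24.7% were called higher and 26.3% lower. The groups were planned apart, and adding them up in this way was not planned. The other groups also hold initiation factors, such as Eif1, Eif1a, Eif5 and Eif5b. Group medians of log2 ran from -0.63 (EIF2) and -0.50 (EIF2B) through -0.24 (EIF3 and EIF4) and -0.14 (EIF2 alpha kinases) to 0.73 (eIF4E-binding proteins), computed from the authors' deposited table. Centred on the median of genes of at least 1 FPKM, they were -0.52 for EIF2, -0.40 for EIF2B, -0.13 for EIF3 and EIF4, -0.033 for the kinases and 0.84 for the binding proteins (computed from the authors' deposited table). For EIF3 and EIF4, 42.9% and 36.4% of tested genes were called lower. The share of all tested rows with a mean of at least 3 FPKM was 32.7%. EIF3 and EIF4 genes mostly lie well above that floor, with median attached FPKM of 95.6 and 110. No share of rows at matched levels was computed, so whether the lower calls of EIF3 and EIF4 set them apart was not tested. Groups of 2 to 14 genes are small, and no test between groups was made.

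Promoter sequence was also looked at, for members called in either direction and for members not called. RefSeq windows (GRCm38.p6) from 250 bases before to 50 bases after an annotated start were matched by symbol for 44 of the 54 genes. Those without a window were Eif1a, Eif2b3, Eif3e, Eif3h, Eif3i, Eif3j2, Eif4e1b, Eif4ebp1, Eif4g2 and Eif6. The letters CACGTG, the E-box that MYC with MAX and several other factors can bind and which reads the same on both strands, were found for 10 of 44 members (22.7%), for 8.09% of all 27025 genes with windows and for 11.6% of the 9711 whose single-gene row was tested. The motif was chosen with the calls known. The following 30-base stretches, 5′ to 3′ on the strand of the gene with the E-box in capitals, belong to members called in either direction and show that the letters stand near starts of genes that rose and of genes that fell.
Eif4e (called lower): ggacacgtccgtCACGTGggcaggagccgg
Eif4g1 (called lower): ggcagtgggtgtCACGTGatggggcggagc
Eif5a (called lower): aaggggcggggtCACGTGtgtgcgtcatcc
Eif5a2 (called higher): cagggcgagcttCACGTGacggggcgggac
Eif1b (called higher): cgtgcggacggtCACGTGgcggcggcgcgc

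These stretches lie at chr3:138527192-138527221 (plus strand) for Eif4e, chr16:20672661-20672690 (plus strand) for Eif4g1, chr11:69921443-69921472 (minus strand) for Eif5a, chr3:28781148-28781177 (plus strand) for Eif5a2 and chr9:120492570-120492599 (plus strand) for Eif1b. The E-box begins 64, 54, 74, 117 and 24 bases before a RefSeq start in that order. By the GENCODE M21 annotation the stretch of Eif5a2 is upstream of the gene, those of Eif4g1 and Eif5a are in an intron of the gene, and those of Eif4e and Eif1b overlap an exon. Of the 10 members with the motif 2 were called higher, 3 lower and 5 not, and of the 32 tested members with a window but no motif 3 were called higher, 14 lower and 15 not (calls of the authors' deposited table). Over all tested rows 24.7% were called higher and 26.3% lower. Whether the calls differ with the motif was not tested.

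A second feature was read at the start itself. Messages that begin with a C followed by a run of pyrimidines, known as terminal oligopyrimidine or TOP messages, are known to be translated under the control of mTORC1. Counting a C at the annotated start and at least 4 pyrimidines after it, 3 of 44 members (6.82%) qualified, against 3.01% of all genes with windows. They are Eif2s3x, Eif3f and Eif2c5. The last is no initiation factor and was not tested, so the share among initiation factors alone is lower. Both tested ones, shown with 10 bases before and 20 from the start and the pyrimidine run in capitals, were not called. Annotated starts can be off by some bases, and a gene without such letters may still be a TOP gene.
Eif2s3x (chrX:94212632-94212661, minus strand): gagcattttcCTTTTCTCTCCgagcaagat
Eif3f (chr7:108934405-108934434, plus strand): tctaggctctCTCTCTTTCTCggcaagatg

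Other genes of translation were described from 7 lists of 59 genes in all, 57 of which were tested: 10 were called higher and 26 lower in the authors' deposited table, with a median log2 of -0.30. These are 17.5% and 45.6% of the tested list genes, beside 24.7% and 26.3% of all tested rows and 23.1% and 32.7% of those with at least 3 FPKM, and no test was made of any list. Partners of eIF2 phosphorylation had 3 of 11 called higher and 5 lower (authors' deposited table). Ppp1r15a (GADD34), the stress-induced subunit of the phosphatase that reverses eIF2 phosphorylation, rose from 26.4 to 115 FPKM, and Impact, an inhibitor of GCN2, rose from 9.34 to 45.6 FPKM (both q = 0.000185, authors' deposited table). Gcn1l1, the activator of GCN2, fell from 32.4 to 17.9 FPKM and the phosphatase subunit Ppp1cc from 103 to 62.4 FPKM (both q = 0.000185, authors' deposited table). The kinase Eif2ak4 and its activator Gcn1l1 were thus lower, and the inhibitor of that kinase higher.

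In the list of mTOR and cap control genes, 5 of 20 were called higher and 7 lower in the authors' deposited table, shares close to those of tested rows with at least 3 FPKM (23.1% and 32.7%). Tsc1, which restrains mTORC1, rose from 5.82 to 14.9 FPKM (q = 0.000185), and Pdcd4, an inhibitor of eIF4A, from 25.1 to 46.4 FPKM (q = 0.00451, both from the authors' deposited table). Mknk2, a kinase of eIF4E, rose from 83.6 to 149 FPKM (q = 0.000185, authors' deposited table). Ncbp2, a subunit of the nuclear cap-binding complex, fell from 36.4 to 20.5 FPKM (q = 0.000185, authors' deposited table). Tsc2, the partner of Tsc1, went the other way and was called lower, from 18.1 to 12.7 FPKM (q = 0.00463, authors' deposited table). The kinase Mtor (7.01 and 4.46 FPKM, q = 0.0238) and its mTORC1 partner Rptor (15.5 and 10.3 FPKM, q = 0.000185) were called lower as well in the authors' deposited table. These 3 genes were named after their values were seen.

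The genes listed as helpers of scanning were all called lower, 3 of 3 (authors' deposited table). Ddx3x, a helicase, fell from 172 to 85.6 FPKM, Abcf1, a factor that binds eIF2, from 40.7 to 24.5 FPKM and Dhx29, a helicase, from 8.53 to 4.90 FPKM (all q = 0.000185, authors' deposited table). Termination and recycling genes were called lower in 5 of 8 cases (62.5%) and higher in 0 in the authors' deposited table. Beside both lists, 26.3% of all tested rows were called lower and 24.7% higher. With a mean of at least 3 FPKM these shares were 32.7% and 23.1%. Lists of 3 and 8 genes are small. Abce1, which splits ribosomes for reuse, fell from 75.9 to 37.0 FPKM, Pelo from 29.1 to 15.1, Gspt1 from 93.2 to 52.2 and Hbs1l from 33.5 to 22.8 FPKM (all q = 0.000185, authors' deposited table).

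Of 8 tested genes in the elongation list, whose names begin with Eef, 4 were called lower and 1 higher in the authors' deposited table. These are 50% and 12.5%, beside 26.3% and 24.7% of all tested rows and 32.7% and 23.1% of those with at least 3 FPKM. The exception was Eef2k, the kinase that inhibits the elongation factor eEF2, which rose from 1.14 to 5.92 FPKM, 5.22-fold (q = 0.000185, authors' deposited table). Eef1e1, in the list by its name only and no elongation factor, fell from 59.2 to 23.9 FPKM. Eef1g fell from 367 to 253 FPKM (both q = 0.000185, authors' deposited table). Eefsec, which serves selenoproteins, fell from 7.94 to 6.01 FPKM (q = 0.0112), as listed in the authors' deposited table. The most abundant elongation factors were not called, Eef1a1 at 2221 and 2138 FPKM (q = 0.771) and Eef2 at 863 and 837 FPKM (q = 0.801, authors' deposited table). Among poly(A)-binding genes 1 of 5 was called higher, Paip2, an inhibitor of the poly(A)-binding protein (77.0 to 118 FPKM, q = 0.000185), and 1 lower, its counterpart Paip1 (71.0 to 53.0 FPKM, q = 0.00171, authors' deposited table). Of the 2 mitochondrial initiation factors Mtif2 fell from 13.7 to 8.03 FPKM (q = 0.000185) and Mtif3, named although not called, stood at 12.3 and 12.2 FPKM (q = 0.973, authors' deposited table).

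**Figure D5:**
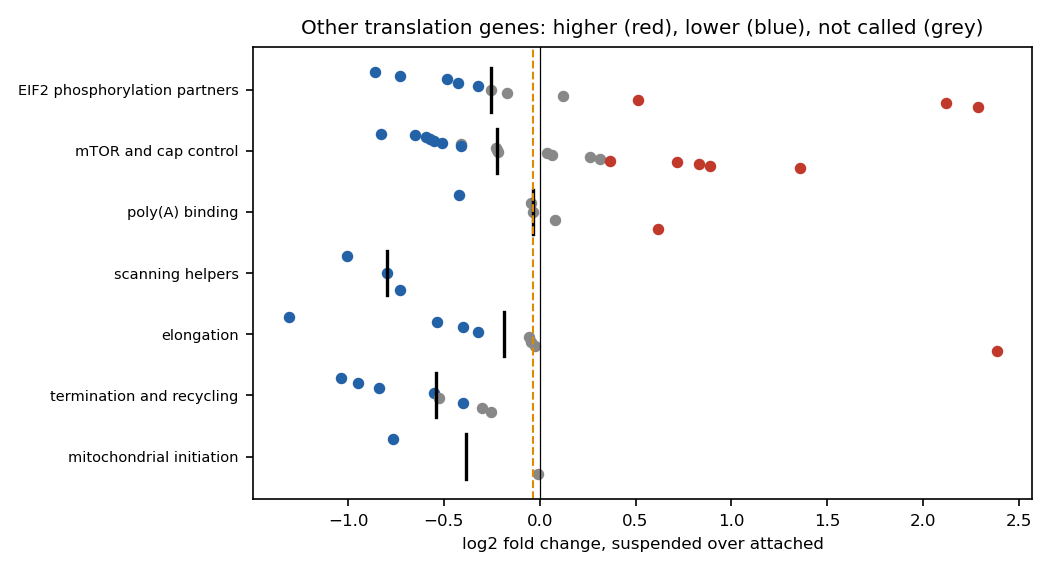
Log2 fold change (suspended over attached, authors' deposited table) of the 57 tested genes in 7 lists of other translation genes, coloured red for called higher, blue for called lower and grey for not called, with a black bar at each list median and a dashed line at the median of all tested rows (-0.04). Scanning helpers and termination and recycling have no point above 0, while Eef2k, Impact and Ppp1r15a lie above 2.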

How the data were processed

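RNA of 6 libraries, 3 attached and 3 suspended for 4 h, had been extracted with DNase digestion and sequenced as mRNA, per the labels' protocols. TopHat, Bowtie, Cufflinks 1.0.3, Cuffdiff and the build mm10 are named in the submitters' processing notes. Settings, annotation and strand use are, in the sources used here, not given. The authors deposited 1 FPKM per condition, pooled over its libraries, with a log2 fold change, a test score, a p-value and a q-value of their own comparison, per the file headers. The deposited q is called below 0.05. The smallest deposited p, 5e-05, is shared by 4278 rows, all with q = 0.000185, so these cannot be ranked.

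Computed here from the deposited FPKM and log2 values were counts, medians, sums and ratios over genes; the test score was not used. Members and lists were chosen with earlier results of these data known. Members of EIF2, EIF2B, EIF3, EIF4, the kinases and the eIF4E-binding proteins are all named, as are up to 4 called genes per list whose higher condition reached 5 FPKM; Tsc2, Mtor, Rptor, Eef1a1, Eef2 and Mtif3 were named after their values were seen. Starts in the deposited table count from 0 and 1 was added. All 54 members were found in GENCODE M21 at an overlapping position. Another coding gene overlaps 11 of them, and 8 have rows over 2 times the gene's span (Eif2s2, Eif2d, Eif3j1, Eif3m, Eif4a2, Eif4enif1, Eif5b and Eif6), so their values are uncertain. Other settings tried are the threshold, a 2-fold minimum, the adjustment, the filter on low values, the pseudocount and the scaling. The background of at least 3 FPKM was added after seeing the data. The calculations were tested on simulated data. Python 3.11.15, NumPy 2.4.6, pandas 2.3.3, SciPy 1.17.1 and matplotlib 3.10.9 were used.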

Additional observations from a re-analysis of the deposited data

How the results depend on the processing

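No paired analysis was possible because the deposited table holds 1 value per condition; for the same reason leaving out a replicate and another test or normalization by library were not run. The 20 lower and 7 higher calls were 16 and 7 at q below 0.01 (Eif5b, Eif2b2, Eif4b and Eif3i were lost). They were equal to the reported counts after recomputing the Benjamini-Hochberg adjustment. A filter at a mean of 1 or 3 FPKM could not change the counts, because the lowest mean of a tested member was 3.18 FPKM. With a 2-fold minimum 1 lower and 2 higher calls were left, so the lean toward lower calls rests on changes under 2-fold. The members' median log2 of -0.24 became -0.23 with a pseudocount of 1, -0.13 when centred on the median of genes of at least 1 FPKM, -0.16 with upper-quartile rescaling and -0.14 with equal sums without mitochondrial and miRNA rows, which add 0.11, 0.08 and 0.10 to every log2 value. These shifts are smaller than the smallest called change, so they could turn the sign of uncalled members only: 33, 35 and 33 members lay below 0 against 40. The EIF1 median of -0.00063 turned to 0.11, 0.080 and 0.10, and no other group median changed sign. Depth per library is unknown.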
